A study of Mus musculus with 48 samples.

Results

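Collagens outside the cartilage fibril were taken from the collagen genes other than those of the type I, II, IX, X and XI chains. For this group 32 of the 55487 genes in the mouse count table were chosen by name. They comprised 6 fibrillar chains (Col3a1, Col5a1, Col5a2, Col5a3, Col24a1 and Col27a1), 6 type IV chains of basement membranes (Col4a1 to Col4a6), the 2 multiplexins Col15a1 and Col18a1, Col7a1 of anchoring fibrils, 3 type VI chains (Col6a1, Col6a2 and Col6a3) and 2 type VIII chains (Col8a1 and Col8a2). A further 6 were fibril-associated collagens with interrupted helices, or FACITs (Col12a1, Col14a1, Col16a1, Col19a1, Col20a1 and Col22a1), 4 were transmembrane (Col13a1, Col17a1, Col23a1 and Col25a1), and Col26a1 and Col28a1 stood outside these classes. All 32 passed the filter on low counts in both fits used below.

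RNA and histone marks were measured in limb cells of C57BL/6 mice at postnatal day 3, sorted into 3 populations. SSC stands for skeletal stem cells, BCSP for bone, cartilage and stromal progenitors, and pBCSP for the stage labelled as preceding BCSP. KO mice carried floxed Ptip alleles together with Cre under control of Col2a1, a gene of cells that form cartilage (Ptipf/f;Col2a1-cre), and WT mice carried the same floxed alleles without Cre (Ptipf/f), so that effects of Cre itself were not separated from loss of Ptip. Every population was represented by 2 KO and 2 WT RNA libraries. The labels do not say whether replicates are separate animals, so the p-values cover the spread among these libraries and no more, and that spread may be technical.

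Collagens are extracellular matrix proteins built from intertwined helical chains. Type III and type V chains join type I collagen in the fibrils of skin, tendon and vessel walls, where type V is known to start and limit fibril growth. Type IV chains form the sheet of basement membranes, type VI chains form beaded microfilaments around cells, type VIII chains form hexagonal nets, and FACITs lie on the surface of fibrils. In the limb, mature cartilage is poor in most of these types, and perichondrium, tendon, muscle, nerve and vessels are rich in them.

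Start site sequences of 4 members are printed because the results return to them: Col3a1 (higher in WT BCSP), Col5a1 (lower in KO), Col27a1 (higher in every KO library) and Col28a1 (no peak of any mark at its start). Each run is the 250 bases before the start site in RefSeq, build GRCm38.p6, read 5′ to 3′ on the strand of the gene, and capitals mark the motif GGGCGG or TATAAA or CCAAT on either strand. Col3a1 lies at chr1:45311288-45311537 (plus strand), Col5a1 at chr2:27886175-27886424 (plus), Col27a1 at chr4:63215162-63215411 (plus) and Col28a1 at chr6:8192618-8192867 (minus).
Col3a1: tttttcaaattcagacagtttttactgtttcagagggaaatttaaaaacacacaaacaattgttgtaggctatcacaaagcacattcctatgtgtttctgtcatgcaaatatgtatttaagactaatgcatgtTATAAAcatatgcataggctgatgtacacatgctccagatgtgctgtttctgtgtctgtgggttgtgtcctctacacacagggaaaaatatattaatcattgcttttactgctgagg
Col5a1: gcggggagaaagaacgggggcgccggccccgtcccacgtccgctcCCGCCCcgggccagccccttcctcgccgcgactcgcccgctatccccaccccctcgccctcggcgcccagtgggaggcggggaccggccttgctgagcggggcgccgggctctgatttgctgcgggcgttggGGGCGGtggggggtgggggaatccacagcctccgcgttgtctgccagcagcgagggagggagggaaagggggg
Col27a1: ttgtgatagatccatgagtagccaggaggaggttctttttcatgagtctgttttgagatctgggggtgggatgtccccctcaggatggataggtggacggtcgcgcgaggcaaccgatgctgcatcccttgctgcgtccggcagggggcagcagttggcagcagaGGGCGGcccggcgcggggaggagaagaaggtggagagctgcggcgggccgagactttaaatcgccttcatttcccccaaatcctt
Col28a1: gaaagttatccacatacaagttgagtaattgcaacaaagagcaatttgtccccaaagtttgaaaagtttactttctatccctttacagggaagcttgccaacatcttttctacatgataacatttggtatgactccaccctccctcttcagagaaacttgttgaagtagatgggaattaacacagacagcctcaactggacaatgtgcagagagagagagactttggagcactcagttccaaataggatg
The Col3a1 run holds 1 TATAAA and 0 GGGCGG motifs and 0 CpG pairs, whereas the Col5a1 run holds 0 TATAAA and 2 GGGCGG motifs and 28 CpG pairs. The Col27a1 run holds 1 GGGCGG and 15 CpG pairs, and the Col28a1 run holds neither of these motifs and 0 CpG pairs. Start site windows of 300 bases, 250 before and 50 after the start, were found in RefSeq for 26 of the 32 members (28 windows). GGGCGG was present on either strand in 57.1% of these and in 35.7% of 32851 windows of all genes, TATAAA in 10.7% of the members' windows and 13.6% of all, and CCAAT in 32.1% of the members' windows and 37.4% of all. The median window held 13 CpG pairs among the members and 7 among all genes, and none of the 3 motifs contains another. Such matches describe the letters only, and the windows of all genes were taken without the filter on low counts that every member passed.

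Libraries held 15495915 to 22670899 counts. In 11 of the 12 libraries 20965 to 23831 genes were detected, but in SSC KO replicate 2 only 13987, and that library listed 13 of the 32 members at 0, a level that allows up to 3 counts or 0.134 to 0.208 in counts per 1000000 (CPM) across the libraries. The median absolute log2 difference between replicates was 0.98 in SSC KO, 0.56 in pBCSP KO and 0.54 in BCSP KO, against 0.37 for WT SSC, 0.34 for WT pBCSP and 0.30 for WT BCSP. Paxip1, the gene of Ptip, was at 0.347 and 0 CPM (SSC), 0.568 and 0.0904 CPM (pBCSP) and 3.48 and 0.791 CPM (BCSP) in KO libraries. WT libraries had it at 13.7 and 11.8 CPM (SSC), 14.6 and 7.56 CPM (pBCSP) and 13.2 and 7.25 CPM (BCSP). The average KO difference was -4.52 ± 0.76 on the log2 scale (adjusted p = 0.0396, edgeR's quasi-likelihood test; lower in 6 of 6 KO libraries). No KO library reached a WT value, and BCSP KO replicate 1 had the highest level among the KO libraries. Of the surface markers by which these populations are known to be sorted, Cd200 fell by 3.19 ± 0.32 in WT pBCSP against WT SSC, and Eng, the gene of CD105, was 2.25 ± 0.23 higher in WT BCSP than in WT pBCSP (adjusted p = 0.00806 and 0.00954, edgeR). The Eng call was lost without BCSP WT replicate 2. Cd200 was at 289 and 198 CPM in SSC WT, 27.7 and 25.7 CPM in pBCSP WT and 132 and 75.2 CPM in BCSP WT. Tek, another of these markers, was called higher in WT pBCSP than in WT SSC, by 3.31 on the log2 scale. Its levels were 0.461 and 0.537 CPM in SSC WT, 4.41 and 5.62 CPM in pBCSP WT and 10.6 and 10.1 CPM in BCSP WT.

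Between WT populations, Col3a1, Col5a1, Col5a2, Col5a3, Col4a1, Col4a2, Col14a1 and Col22a1 were higher in BCSP than in SSC, Col20a1 and Col28a1 were lower, and the other 22 members were not called. With edgeR's quasi-likelihood test on the 6 WT libraries and Benjamini-Hochberg adjustment over all genes, 10 of the 32 members passed 0.05, of which 8 rose and 2 fell, against a background of 3.45% of all genes called (2.85% higher and 0.603% lower). WT BCSP against WT pBCSP gave 5 members, all higher, with a background of 2.06% (1.67% higher and 0.387% lower). WT pBCSP against WT SSC gave 1 higher and 2 lower, with a background of 1.18% (0.480% higher and 0.701% lower). Over the members the median log2 difference of WT BCSP against WT SSC was 0.23, and over all genes tested it was -0.02. These calls used the spread of the WT libraries alone: in a fit over all 12 libraries 0 members and 0 genes were called in any of the 3 comparisons, with 6 members at an unadjusted p under 0.05 for BCSP against SSC (3.48% of all genes), 2 for BCSP against pBCSP (2.62%) and 4 for pBCSP against SSC (1.89%). The WT BCSP against WT pBCSP calls also fell to 0 without either BCSP WT library and to 1 without pBCSP WT replicate 1, and WT BCSP against WT SSC kept 6 without BCSP WT replicate 1 or replicate 2.

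In KO cells 27 of the 32 members had a fitted difference below 0 on average, and 1 passed the test. Averaged over the 3 populations, Col5a1 fell, with a background of 1.17% of genes called (0.966% higher and 0.206% lower), while 16 of the 32 members had an unadjusted p under 0.05, as did 19.6% of all genes. The share of members below 0 was 84.4%, with a median of -0.92, and over all genes 55.3% were below 0, with a median of -0.09. Without SSC KO replicate 2 it was below 0 for 28 of the 32 members, with a median of -0.84, and 0 members were called. Leaving out SSC KO replicate 1, which left SSC KO replicate 2 as the lone SSC KO library assumed to vary like the other groups, gave 25 called members beside 6147 of 19222 genes called, leaving out BCSP KO replicate 1 gave 4 beside 1.82%, and leaving out any other single library gave 0. For 17 members all 6 KO libraries lay below the WT mean of their own population, which held for 14.7% of all genes, and for Col27a1 all 6 lay above it, which held for 9.20% of all genes. Within a single population 0 members and 0 genes were called by edgeR (at an unadjusted p under 0.05 were 4 members and 9.39% of all genes in SSC, 2 members and 6.27% in pBCSP, and 10 members and 6.26% in BCSP). DESeq2 called 0 members in SSC, 0 in pBCSP and 2 in BCSP, and without SSC KO replicate 1 edgeR called 18 in SSC beside 30.7% of all genes. The test of whether the KO effect differed between populations called 0 members and 0 genes by edgeR (0 members and 1.37% of all genes at an unadjusted p under 0.05) and 0 members by DESeq2, while without SSC KO replicate 1 edgeR called 4 beside 10.8% of all genes. The comparisons of KO with WT and between WT populations share the WT libraries.

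**Figure D1:**
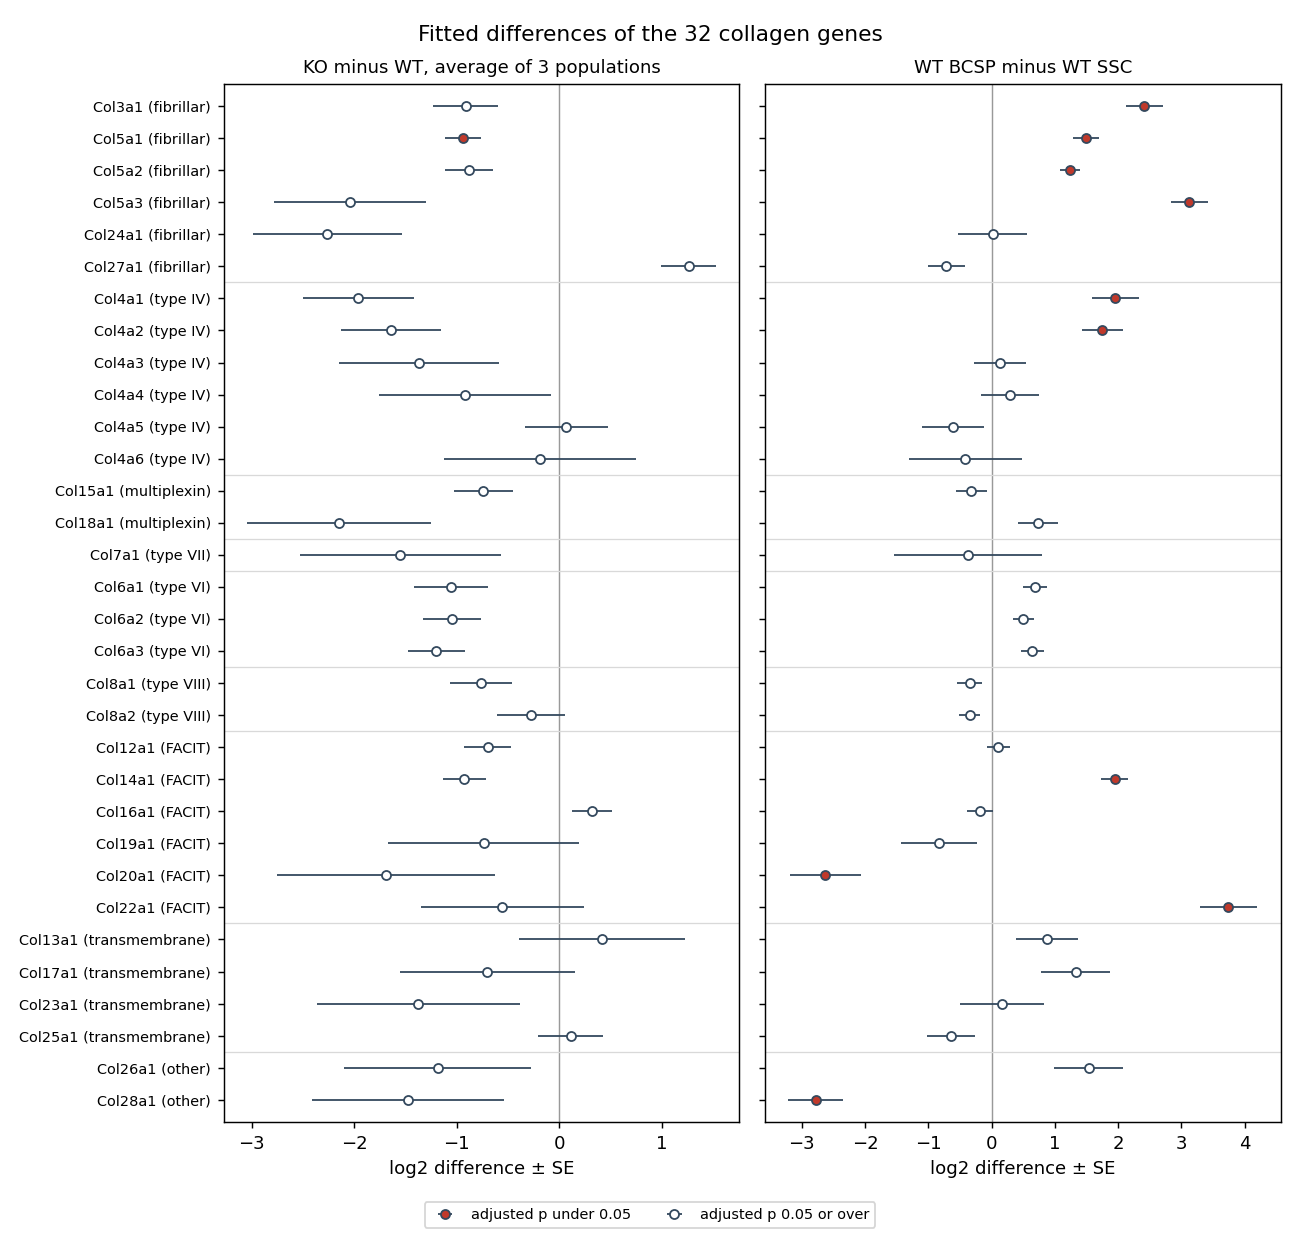
Fitted log2 differences (points) with standard errors (bars) for the 32 collagen genes, KO minus WT averaged over 3 populations on the left and WT BCSP minus WT SSC on the right, filled where the adjusted p was under 0.05. Left of 0 lie 27 genes in the KO comparison, and 10 genes are filled in the WT comparison, 8 to the right of 0 and 2 to the left.

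Among the fibrillar chains, Col3a1, the chain of type III collagen (ENSMUSG00000026043; GRCm38 chromosome 1, 45311538 to 45349706), was highest in the BCSP WT libraries. In KO libraries Col3a1 was at 1024 and 595 CPM (SSC), 2896 and 1124 CPM (pBCSP) and 2306 and 986 CPM (BCSP). In WT libraries it was at 1136 and 1559 CPM (SSC), 1342 and 2424 CPM (pBCSP) and 6899 and 7171 CPM (BCSP). Both BCSP WT libraries stood above every other library, while in pBCSP the KO and WT values overlapped. Col3a1 was 2.41 ± 0.29 higher on the log2 scale in WT BCSP than in WT SSC (adjusted p = 0.00418) and 1.93 ± 0.29 higher than in WT pBCSP (0.0208, edgeR), the second call being lost without either BCSP WT library (adjusted p up to 0.149). KO minus WT for Col3a1 was -2.10 ± 0.57 in BCSP, 0.09 ± 0.55 in pBCSP and -0.73 ± 0.55 in SSC, and the test of a difference between populations gave an adjusted p of 1 (edgeR).

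Col5a1 (ENSMUSG00000026837; chromosome 2, 27886381 to 28039510) and Col5a2 (ENSMUSG00000026042; chromosome 1, 45374331 to 45503282) encode the chains of the common form of type V collagen. In KO libraries Col5a1 was at 54.7 and 56.9 CPM (SSC), 124 and 90.5 CPM (pBCSP) and 94.5 and 55.8 CPM (BCSP). WT libraries had Col5a1 at 73.0 and 95.1 CPM (SSC), 166 and 158 CPM (pBCSP) and 207 and 256 CPM (BCSP). The KO values lay below the WT values within each population, and the ranges over all populations overlapped. Averaged over the populations Col5a1 in KO fell by 0.94 ± 0.18 on the log2 scale, a 0.522-fold level (adjusted p = 0.049, edgeR; below the WT mean in 6 of 6 KO libraries). Col5a1 was not called with RLE size factors, with limma's sample quality weights or with pBCSP and BCSP only. This call held without SSC KO replicate 1 or without BCSP KO replicate 1 (adjusted p = 0.00966 and 0.0301) and was lost without any other single library, with adjusted p between 0.0545 and 0.215 and log2 differences between -1.01 and -0.83. In WT cells Col5a1 was 1.49 ± 0.21 higher in BCSP than in SSC (adjusted p = 0.00841, edgeR), a call lost without SSC WT replicate 1 or BCSP WT replicate 2 (adjusted p up to 0.0965).

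In KO libraries Col5a2 was at 209 and 189 CPM (SSC), 387 and 163 CPM (pBCSP) and 291 and 165 CPM (BCSP). WT libraries had Col5a2 at 281 and 288 CPM (SSC), 412 and 419 CPM (pBCSP) and 670.3 and 644 CPM (BCSP). The 2 BCSP WT libraries were the highest, and pBCSP KO replicate 1 and BCSP KO replicate 1 lay within the WT range. Col5a2 was 1.24 ± 0.16 higher in WT BCSP than in WT SSC (adjusted p = 0.00532, edgeR), and its average KO difference of -0.88 ± 0.23 did not pass (adjusted p = 0.0956). Col5a3 (ENSMUSG00000004098; chromosome 9, 20770050 to 20815117), the less widespread type V chain, was at 2.50 and 0.0554 CPM (SSC), 12.2 and 3.66 CPM (pBCSP) and 30.7 and 2.68 CPM (BCSP) in KO libraries. WT libraries had Col5a3 at 7.72 and 9.91 CPM (SSC), 13.6 and 21.4 CPM (pBCSP) and 71.4 and 79.6 CPM (BCSP). In each population both KO values lay below both WT values, and across populations pBCSP KO replicate 1 and BCSP KO replicate 1 lay within the WT range. Col5a3 was 3.13 ± 0.30 higher in WT BCSP than in WT SSC (adjusted p = 0.0017) and 2.14 ± 0.28 higher than in WT pBCSP (0.0176, edgeR), the second call being lost without pBCSP WT replicate 1, BCSP WT replicate 1 or BCSP WT replicate 2 (adjusted p up to 0.149). BCSP KO replicate 1 stood well above BCSP KO replicate 2, and the average KO difference of -2.04 ± 0.74 had an adjusted p of 0.182 (edgeR).

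Col27a1 (ENSMUSG00000045672; chromosome 4, 63214009 to 63334991), a fibrillar chain known from cartilage, ran the other way. In KO libraries Col27a1 was at 159.8 and 345 CPM (SSC), 182 and 304 CPM (pBCSP) and 168 and 265 CPM (BCSP). WT libraries had Col27a1 at 146 and 94.1 CPM (SSC), 124 and 98.6 CPM (pBCSP) and 87.5 and 56.0 CPM (BCSP). All 6 KO libraries lay above all 6 WT libraries, a separation in this direction that 3.08% of all genes showed. The average KO difference was 1.26 ± 0.27 log2 (adjusted p = 0.0576, edgeR), so that Col27a1 did not pass the threshold, whereas it was called by DESeq2 (adjusted p = 0.00175) and by limma with sample quality weights (0.0454). Of all genes, DESeq2 called 9.92% and limma with these weights 1.67%. Col24a1, another fibrillar chain, known from developing bone, was at 1.04 and 0 CPM (SSC), 1.89 and 1.81 CPM (pBCSP) and 1.90 and 1.70 CPM (BCSP) in KO libraries. WT libraries had Col24a1 at 2.36 and 7.94 CPM (SSC), 5.96 and 8.54 CPM (pBCSP) and 5.47 and 4.72 CPM (BCSP). The 6 KO libraries lay below the 6 WT libraries, as did 1.98% of all genes, and the average difference was -2.26 ± 0.73 (adjusted p = 0.145, edgeR). The ratio of Col27a1 to Col5a1 counts ran from 1.48 to 6.07 in KO libraries and from 0.219 to 2.00 in WT libraries.

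Chondrocyte markers were taken beside Col27a1: of 8 markers 4 rose in KO on average, among them Matn1 by 3.00 ± 0.33 and Matn3 by 1.47 ± 0.22 (adjusted p = 0.0244 and 0.0312, edgeR), both matrilins of cartilage matrix. The summed level of the 8 markers was 51495 to 80928 CPM in KO libraries and 30395 to 84131 CPM in WT libraries, with 0 of them listed at 0, and Col2a1 is in this list and in the next. Of the 9 type I, II, IX, X and XI chains 4 rose in KO, namely Col9a3 by 1.47 ± 0.22, Col11a2 by 1.41 ± 0.23, Col9a2 by 1.32 ± 0.24 and Col9a1 by 1.16 ± 0.21 (adjusted p = 0.0312, 0.0357, 0.0472 and 0.0484, edgeR). Col2a1, the main cartilage chain and the highest of that list in CPM, was at 37783 and 23645 CPM (SSC), 42315 and 29157 CPM (pBCSP) and 23098 and 34072 CPM (BCSP) in KO libraries. WT libraries had Col2a1 at 58089 and 36491 CPM (SSC), 30700 and 28148 CPM (pBCSP) and 30766 and 21136 CPM (BCSP). These 8 calls and that of Serpinh1 given further on held in 2 to 4 of the 12 fits that each left out 1 library, with adjusted p up to 0.221 in the others. The part of cartilage cells in the Col27a1 values was not tested. In bulk libraries such as these, fewer cells of a type and less RNA per cell cannot be told apart.

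**Figure D2:**
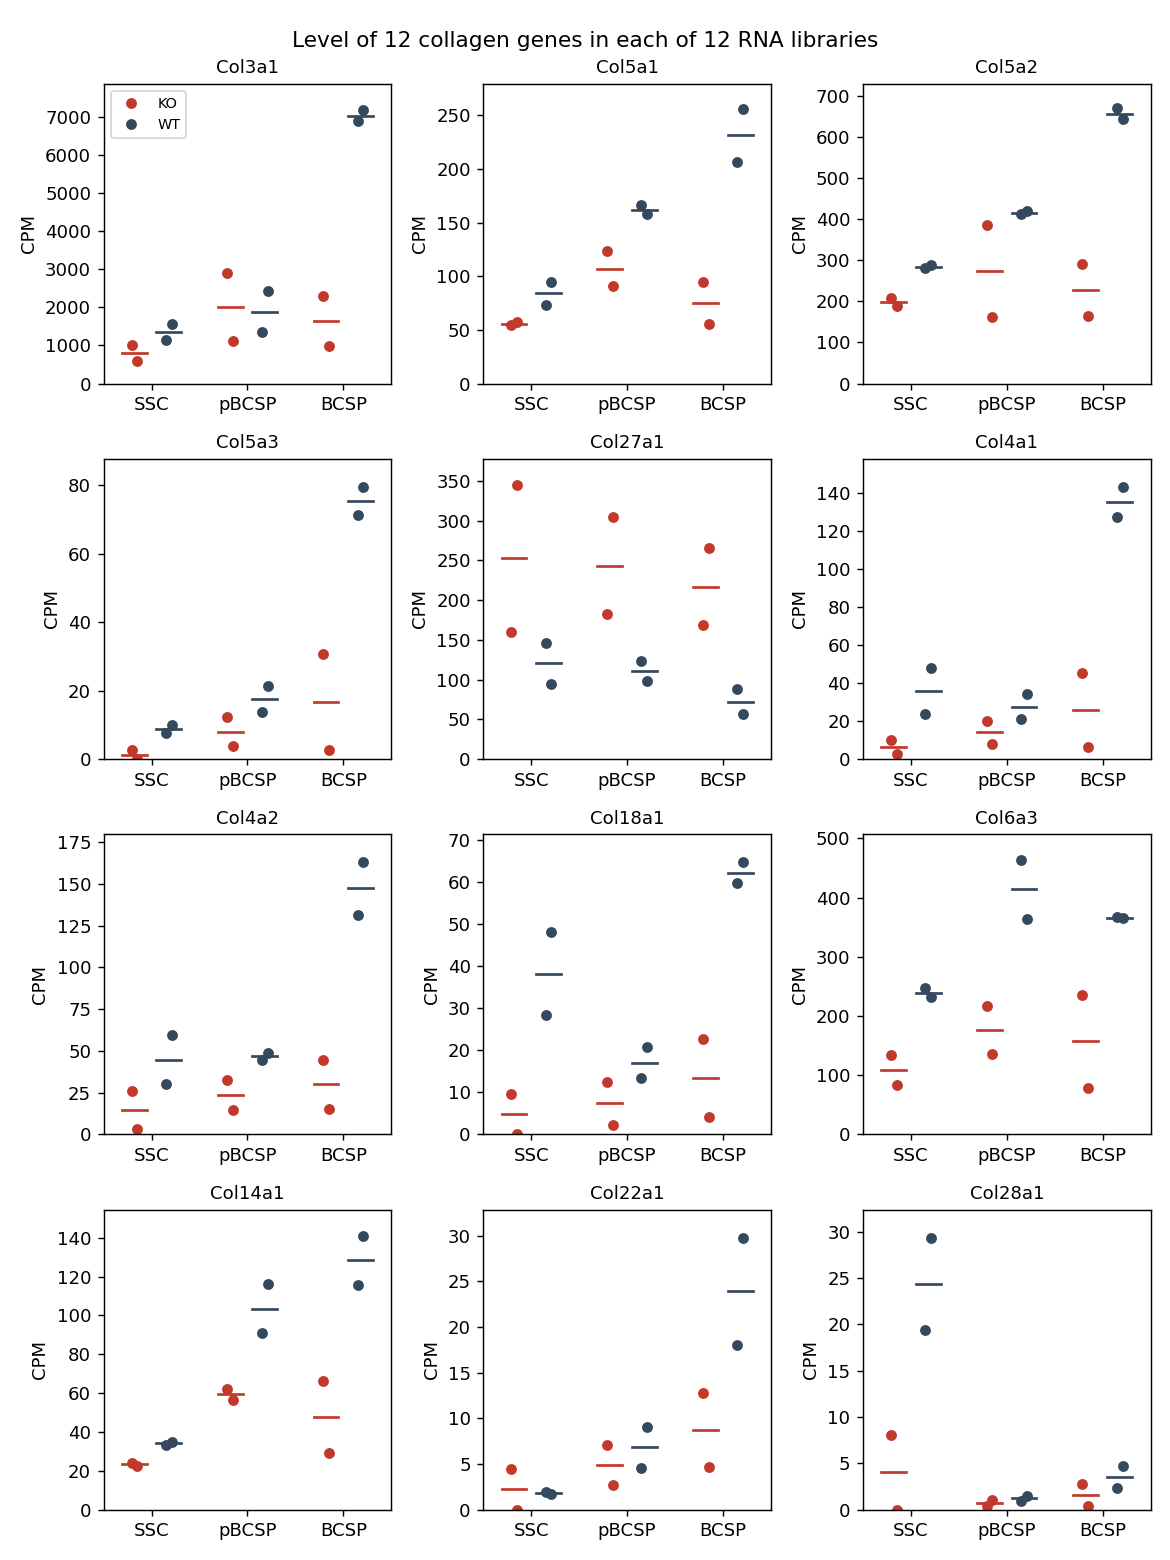
Level in CPM (linear axis from 0) of 12 collagen genes in SSC, pBCSP and BCSP, with KO points left of WT points, 2 libraries each, and a bar at the mean. BCSP WT libraries are the highest for Col3a1, Col5a1, Col5a2, Col5a3, Col4a1, Col4a2, Col18a1 and Col22a1, and KO libraries are the highest for Col27a1.

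The type IV chains Col4a1 (ENSMUSG00000031502) and Col4a2 (ENSMUSG00000031503), which together make the common network of basement membranes, lie head to head on chromosome 8, at 11198423 to 11312889 and at 11312805 to 11449287, and their annotated ends overlap, so that reads there cannot be assigned to 1 of them without strand. In KO libraries Col4a1 was at 10.1 and 2.38 CPM (SSC), 20.2 and 7.82 CPM (pBCSP) and 45.4 and 6.21 CPM (BCSP). In WT libraries it was at 23.4 and 47.9 CPM (SSC), 21.0 and 34.0 CPM (pBCSP) and 127 and 143 CPM (BCSP). Both BCSP WT libraries were above all others, and BCSP KO replicate 1 was the only KO library within the WT range. Col4a2 was at 25.6 and 3.44 CPM (SSC), 32.7 and 14.3 CPM (pBCSP) and 44.7 and 15.2 CPM (BCSP) in KO libraries. WT libraries had Col4a2 at 30.0 and 59.3 CPM (SSC), 44.4 and 49.0 CPM (pBCSP) and 131 and 163 CPM (BCSP). BCSP WT was again highest, and pBCSP KO replicate 1 and BCSP KO replicate 1 lay within the WT range. The ratio of Col4a1 to Col4a2 was 0.395 to 1.02 in KO libraries and 0.473 to 0.969 in WT libraries.

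Col4a1 was 1.95 ± 0.37 higher on the log2 scale in WT BCSP than in WT SSC (adjusted p = 0.0292) and 2.33 ± 0.38 higher than in WT pBCSP (0.0252, edgeR). For Col4a2 these differences were 1.75 ± 0.32 (0.0254) and 1.69 ± 0.32 (0.0409, edgeR). Both BCSP against SSC calls were lost without SSC WT replicate 1, BCSP WT replicate 1 or BCSP WT replicate 2 (adjusted p up to 0.195 for Col4a1 and 0.207 for Col4a2). The BCSP against pBCSP calls were lost without pBCSP WT replicate 1, BCSP WT replicate 1 or BCSP WT replicate 2, and for Col4a2 also without pBCSP WT replicate 2 (adjusted p up to 0.187 for Col4a1 and 0.3 for Col4a2). The average KO difference was -1.96 ± 0.54 for Col4a1 (adjusted p = 0.106) and -1.64 ± 0.49 for Col4a2 (0.126, edgeR), and 6 of 6 KO libraries lay below the WT mean of their population for each. The other type IV chains, which build the specialised membranes of kidney and other epithelia, had few reads. Col4a3 was at 1.80 and 0 CPM (SSC), 0.694 and 1.81 CPM (pBCSP) and 1.26 and 1.28 CPM (BCSP) in KO libraries. WT libraries had Col4a3 at 3.00 and 2.51 CPM (SSC), 2.98 and 3.08 CPM (pBCSP) and 3.25 and 2.64 CPM (BCSP). Thus the 6 KO libraries lay below the 6 WT libraries for Col4a3, as did 1.98% of all genes, with a difference of -1.36 ± 0.78 (adjusted p = 0.365, edgeR). These Col4a3 values rest on 0 to 40 reads in KO libraries and 42 to 67 in WT libraries. Col4a4, Col4a5 and Col4a6 ranged from 0 to 3.66 CPM in KO libraries and from 0.27 to 4.60 CPM in WT libraries, and none passed the test in any comparison.

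Col18a1 (ENSMUSG00000001435; chromosome 10, 77052178 to 77166530), the multiplexin from which endostatin is cut, was at 9.63 and 0 CPM (SSC), 12.6 and 2.12 CPM (pBCSP) and 22.7 and 4.02 CPM (BCSP) in KO libraries. WT libraries had Col18a1 at 28.3 and 48.1 CPM (SSC), 13.4 and 20.7 CPM (pBCSP) and 59.9 and 64.7 CPM (BCSP). Both KO values lay below both WT values in each population, and across populations BCSP KO replicate 1 lay within the WT range. Col18a1 was 1.90 ± 0.32 higher in WT BCSP than in WT pBCSP (adjusted p = 0.0294, edgeR), a call lost without pBCSP WT replicate 1, BCSP WT replicate 1 or BCSP WT replicate 2 (adjusted p up to 0.221). Against WT SSC the difference of WT BCSP was 0.74 ± 0.31 (0.312). Averaged over populations, its KO minus WT difference was -2.15 ± 0.90 (adjusted p = 0.232, edgeR). Col15a1, the other multiplexin, ranged from 13.6 to 84.3 CPM in KO libraries and from 39.5 to 100.4 CPM in WT libraries, and had its highest WT values in pBCSP. Its WT BCSP minus WT pBCSP difference was -1.05 ± 0.24 (adjusted p = 0.0758, edgeR). Of 14 other basement membrane genes tested, 5 were higher in WT BCSP than in WT pBCSP, among them the laminin chains Lamb1 (3.09 ± 0.48) and Lama2 (2.48 ± 0.44) and the laminin binding nidogens Nid1 (1.83 ± 0.29) and Nid2 (1.40 ± 0.26), with adjusted p of 0.0228, 0.0347, 0.0246 and 0.0378 (edgeR). Without BCSP WT replicate 2 these 5 calls were lost. Between KO and WT 0 of the 14 were called by edgeR on average, with 5 at an unadjusted p under 0.05.

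Markers of endothelial cells, which make type IV and type XVIII collagen, were given beside these chains. Their summed level over 8 genes was 14.3 and 7.71 CPM in SSC KO, 29.5 and 5.20 CPM in pBCSP KO and 13.2 and 11.0 CPM in BCSP KO, against 11.3 and 14.8 CPM in SSC WT, 56.9 and 64.7 CPM in pBCSP WT and 31.5 and 32.4 CPM in BCSP WT. The marker sum was thus highest in pBCSP WT, where Col4a1, Col4a2 and Col18a1 were lower than in BCSP WT. In WT BCSP against WT pBCSP 7 of the 8 markers had a difference below 0 and 0 were called by edgeR (3 at an unadjusted p under 0.05). In WT BCSP against WT SSC, where Col4a1 and Col4a2 were also higher, 7 of the 8 were above 0, with a median of 2.10, and 2 were called higher. SSC KO replicate 2 listed 7 of the 8 endothelial markers at 0 and pBCSP KO replicate 2 listed 4. Between KO and WT on average 7 of the 8 had a difference below 0, and 0 were called by edgeR (3 at an unadjusted p under 0.05). Skeletal muscle markers summed to 53.8 and 7.76 CPM in SSC KO, 62.4 and 12.2 CPM in pBCSP KO and 356 and 12.5 CPM in BCSP KO, against 31.6 and 27.1 CPM in SSC WT, 66.2 and 71.5 CPM in pBCSP WT and 363 and 556 CPM in BCSP WT, and 4 or 5 of the 8 were at 0 in the second replicate of each KO population. The muscle sum was therefore highest in the BCSP WT libraries and in BCSP KO replicate 1, the KO library in which Col4a1, Col4a2, Col18a1, Col5a3 and Col22a1 were also highest among KO libraries. The part of endothelial and muscle cells in these values was not tested.

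**Figure D3:**
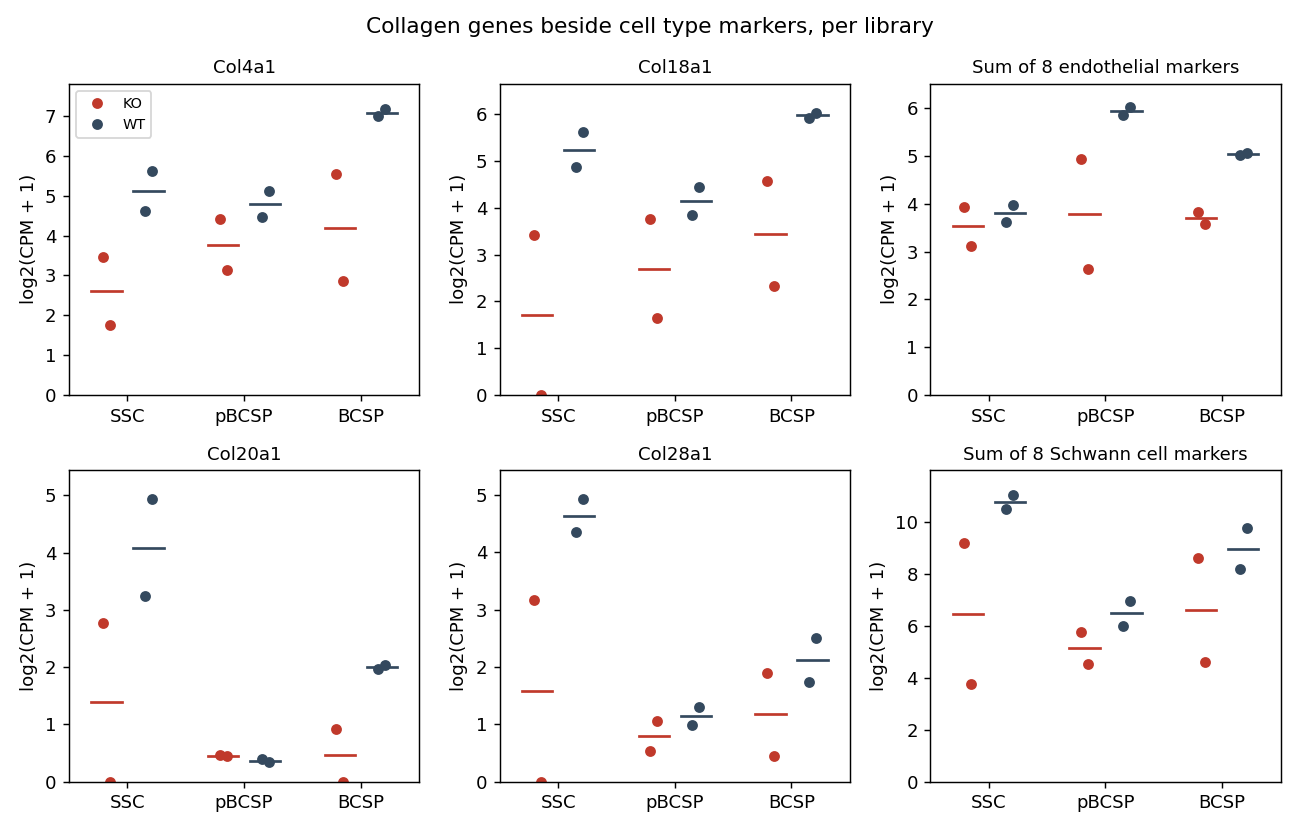
Level as log2(CPM + 1) in each library of Col4a1 and Col18a1 beside the sum of 8 endothelial markers (top), and of Col20a1 and Col28a1 beside the sum of 8 Schwann cell markers (bottom), with KO points left of WT points and a bar at the mean. The endothelial sum is highest in pBCSP WT and Col4a1 in BCSP WT, whereas Col20a1, Col28a1 and the Schwann cell sum are all highest in SSC WT.

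The 3 type VI chains, whose products assemble into 1 filament, were highest in WT libraries. In KO libraries Col6a1 was at 1795 and 439 CPM (SSC), 2909 and 1220 CPM (pBCSP) and 1958 and 1072 CPM (BCSP). In WT libraries it was at 2722 and 2014 CPM (SSC), 3670 and 3445 CPM (pBCSP) and 3457 and 4010 CPM (BCSP). The highest Col6a1 level was in BCSP WT replicate 2. Col6a2 was at 671 and 278 CPM (SSC), 1120 and 503 CPM (pBCSP) and 682 and 394 CPM (BCSP) in KO libraries. WT libraries had Col6a2 at 1080 and 896 CPM (SSC), 1327 and 1379 CPM (pBCSP) and 1402 and 1331 CPM (BCSP). In each population both KO values lay below both WT values for these chains, and across populations pBCSP KO replicate 1 reached the SSC WT values. Col6a3 was at 134 and 83.3 CPM (SSC), 216 and 135 CPM (pBCSP) and 236 and 78.7 CPM (BCSP) in KO libraries. WT libraries had Col6a3 at 247 and 231 CPM (SSC), 463 and 364 CPM (pBCSP) and 367 and 366 CPM (BCSP). The same held for Col6a3 within each population, and BCSP KO replicate 1 reached the SSC WT level. The ratio of Col6a1 to Col6a2 was 1.58 to 2.87 in KO libraries and 2.25 to 3.01 in WT libraries, and that of Col6a3 to Col6a2 was 0.193 to 0.345 in KO libraries and 0.229 to 0.349 in WT libraries.

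The average KO difference was -1.06 ± 0.36 for Col6a1, -1.05 ± 0.28 for Col6a2 and -1.20 ± 0.28 for Col6a3, with adjusted p of 0.162, 0.1 and 0.0734 (edgeR), and 6 of 6 KO libraries lay below the WT mean of their population for each. None of the 3 passed in that fit, and all 3 passed with limma's sample quality weights, which give noisier libraries less weight. The fit with these weights called 1.67% of all genes, and the main fit called 1.17%. In WT cells BCSP minus SSC was 0.69 ± 0.19, 0.50 ± 0.17 and 0.65 ± 0.18 for the 3 chains in that order, with adjusted p of 0.11, 0.183 and 0.118 (edgeR). The type VIII chains, which are known from vessel walls and the cornea, showed no called difference. Col8a2 was at 391 and 102 CPM (SSC), 463 and 177 CPM (pBCSP) and 152 and 139 CPM (BCSP) in KO libraries. WT libraries had Col8a2 at 291 and 265 CPM (SSC), 327 and 357 CPM (pBCSP) and 208 and 219 CPM (BCSP). The genotypes overlapped, and pBCSP KO replicate 1 had the highest Col8a2 level. For Col8a2 KO minus WT averaged -0.27 ± 0.33 (adjusted p = 0.674, edgeR). Col8a1 ranged from 33.0 to 150.2 CPM in KO libraries and from 105 to 152 CPM in WT libraries, with a difference of -0.76 ± 0.30 (0.21).

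Among the FACITs, Col14a1 (ENSMUSG00000022371; chromosome 15, 55307644 to 55520803), known from tendon and skin, was lowest in SSC among the WT populations. In KO libraries Col14a1 was at 24.2 and 22.5 CPM (SSC), 62.2 and 56.5 CPM (pBCSP) and 66.0 and 29.2 CPM (BCSP). In WT libraries it was at 33.1 and 35.1 CPM (SSC), 90.7 and 116 CPM (pBCSP) and 116 and 141 CPM (BCSP). The WT values of SSC lay below those of pBCSP, and BCSP WT replicate 1 lay close to pBCSP WT replicate 2. Col14a1 was 1.60 ± 0.22 higher in WT pBCSP than in WT SSC (adjusted p = 0.0177) and 1.94 ± 0.22 higher in WT BCSP than in WT SSC (0.00322, edgeR). The pBCSP call was lost without either SSC WT library (adjusted p up to 0.0645). On average Col14a1 in KO minus WT was -0.93 ± 0.21 (adjusted p = 0.0709, edgeR), with 6 of 6 KO libraries below the WT mean of their population.

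Col22a1 (ENSMUSG00000079022; chromosome 15, 71795795 to 72150979), known from the junction of muscle and tendon, was at 4.44 and 0 CPM (SSC), 7.07 and 2.71 CPM (pBCSP) and 12.8 and 4.69 CPM (BCSP) in KO libraries. WT libraries had Col22a1 at 1.90 and 1.73 CPM (SSC), 4.58 and 9.08 CPM (pBCSP) and 18.0 and 29.8 CPM (BCSP). It was 3.74 ± 0.45 higher in WT BCSP than in WT SSC (adjusted p = 0.00415, edgeR), the largest fitted rise among the members in that comparison, and KO and WT values overlapped. Col12a1, which binds fibrils of tendon and bone, was at 193 and 74.6 CPM (SSC), 193 and 153 CPM (pBCSP) and 148 and 105 CPM (BCSP) in KO libraries. WT libraries had Col12a1 at 189 and 224 CPM (SSC), 267 and 285 CPM (pBCSP) and 231 and 205 CPM (BCSP). The genotypes overlapped, with SSC KO replicate 1 and pBCSP KO replicate 1 within the WT range. For Col12a1 KO minus WT averaged -0.70 ± 0.23 (adjusted p = 0.153, edgeR). Col16a1, a FACIT of several connective tissues, was at 464 and 479 CPM (SSC), 675 and 437 CPM (pBCSP) and 242 and 430.2 CPM (BCSP) in KO libraries. WT libraries had Col16a1 at 403 and 390.0 CPM (SSC), 275 and 387 CPM (pBCSP) and 367 and 316 CPM (BCSP). The 2 genotypes overlapped for Col16a1, with a difference of 0.32 ± 0.19 (0.385). Tendon markers were taken beside Col14a1 and Col22a1: of 8, 3 were higher in WT BCSP than in WT SSC (Thbs4 by 3.43 ± 0.24, Tnmd by 3.37 ± 0.25 and Kera by 3.92 ± 0.46) and Fmod fell by 0.98 ± 0.21, with adjusted p of 0.000527, 0.00057, 0.00377 and 0.0478 (edgeR). The Fmod call held in 2 of the 6 fits that each left out 1 WT library. The sum of the 8 tendon markers was 4555 to 13013 CPM in KO libraries and 5713 to 10877 CPM in WT libraries. Fmod, the highest of them in CPM, made up much of it. Between KO and WT on average 7 of the 8 had a difference below 0, with a median of -0.81. By edgeR 0 of them were called (3 at an unadjusted p under 0.05). The part of tendon cells in these values was not tested. Col19a1 had 0 to 1.87 CPM in KO libraries and 0.49 to 2.21 CPM in WT libraries and was not called.

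Col20a1, a FACIT (ENSMUSG00000016356; chromosome 2, 180983323 to 181017545), and Col28a1 (ENSMUSG00000068794; chromosome 6, 7997100 to 8193709), a collagen known in mouse from the surface of Schwann cells, were the 2 members that fell in WT pBCSP against WT SSC. In KO libraries Col20a1 was at 5.82 and 0 CPM (SSC), 0.379 and 0.362 CPM (pBCSP) and 0.896 and 0 CPM (BCSP). WT libraries had Col20a1 at 8.41 and 29.5 CPM (SSC), 0.312 and 0.270 CPM (pBCSP) and 2.91 and 3.09 CPM (BCSP). Both WT SSC libraries lay above every other library for Col20a1, while in pBCSP both KO libraries lay slightly above both WT libraries. These pBCSP values rest on few reads, 6 and 8 in KO and 7 and 5 in WT, which before scaling did not separate by genotype. In KO libraries Col28a1 was at 8.04 and 0 CPM (SSC), 0.442 and 1.09 CPM (pBCSP) and 2.74 and 0.365 CPM (BCSP). WT libraries had Col28a1 at 19.4 and 29.4 CPM (SSC), 0.979 and 1.46 CPM (pBCSP) and 2.32 and 4.66 CPM (BCSP). Both genes were highest in the SSC WT libraries and at the lowest WT values in pBCSP. In WT pBCSP against WT SSC, Col20a1 fell by 5.99 ± 0.71 and Col28a1 fell by 4.32 ± 0.47 on the log2 scale (adjusted p = 0.0113 and 0.00846, edgeR), and both calls held without each WT library in turn. In WT BCSP against WT SSC they fell by 2.63 ± 0.56 and 2.78 ± 0.43 (adjusted p = 0.0463 and 0.0126, edgeR), calls that for both were lost without SSC WT replicate 2 or BCSP WT replicate 1, and for Col20a1 also without BCSP WT replicate 2 (adjusted p up to 0.287 for Col20a1 and 0.0824 for Col28a1). The average KO differences were -1.69 ± 1.06 for Col20a1 and -1.47 ± 0.94 for Col28a1 (adjusted p = 0.409 and 0.416, edgeR), SSC KO replicate 2 listed both at 0, and BCSP KO replicate 2 listed Col20a1 at 0.

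Schwann cell markers were taken beside this pair. The summed level of the 8 was 577 and 12.6 CPM in SSC KO, 52.7 and 22.0 CPM in pBCSP KO and 390 and 23.2 CPM in BCSP KO, against 1437 and 2111 CPM in SSC WT, 62.8 and 123 CPM in pBCSP WT and 290 and 859 CPM in BCSP WT. In WT pBCSP against WT SSC 3 of the 8 were called lower, among them Cdh19, which fell by 4.93 ± 0.41, and Sox10, which fell by 4.41 ± 0.71 (adjusted p = 0.00459 and 0.03, edgeR), and the Sox10 call held in 4 of the 6 fits that each left out 1 WT library. In WT BCSP against WT SSC 1 of the 8 was called, Cdh19, which fell by 2.00 ± 0.35 (adjusted p = 0.0211, edgeR), 7 had a difference below 0 and 1 above 0. SSC KO replicate 2 listed 3 of the 8 at 0, and pBCSP KO replicate 2 and BCSP KO replicate 2 listed 1 each, whereas 0 were at 0 in WT libraries. Between KO and WT on average 8 of 8 markers had a difference below 0, and 0 were called by edgeR (2 at an unadjusted p under 0.05). The part of Schwann cells in the Col20a1 and Col28a1 values was not tested.

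The remaining members had low levels. Col7a1, the anchoring fibril chain of skin, ranged from 0 to 0.762 CPM in KO libraries and from 0.054 to 1.96 CPM in WT libraries. Of the transmembrane chains, Col13a1 ranged from 0.271 to 11.4 CPM in KO and from 0.918 to 3.48 CPM in WT, and Col17a1 of hemidesmosomes from 0 to 7.85 CPM in KO and from 3.04 to 16.6 CPM in WT. Col23a1 ranged from 0 to 1.42 CPM in KO and from 0.731 to 2.22 CPM in WT, and Col25a1 from 7.76 to 31.7 CPM in KO and from 7.70 to 21.3 CPM in WT. Col26a1 ranged from 0 to 9.38 CPM in KO libraries and from 4.05 to 27.8 CPM in WT libraries. These 6 genes were called in no comparison, and the highest Col13a1 value came from SSC KO replicate 2, the library with the fewest genes.

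Genes that process collagen were taken beside the members. Of 16 genes for procollagen processing and cross-linking, 4 were higher in WT BCSP than in WT SSC, namely Adamts2 (2.37 ± 0.26), which removes the amino propeptide of fibrillar chains, Lox (2.53 ± 0.29) and Loxl1 (1.51 ± 0.18), which start cross-links, and Pcolce (1.43 ± 0.22), an enhancer of propeptide removal, with adjusted p of 0.00314, 0.00361, 0.0041 and 0.0116 (edgeR). In KO 1 of the 16 rose on average, Serpinh1, the collagen chaperone of the endoplasmic reticulum, by 0.98 ± 0.19 (adjusted p = 0.0495, edgeR), and Sparc, a collagen binding protein and the highest of the list in CPM, was at 26972 and 24853 CPM (SSC), 20433 and 14842 CPM (pBCSP) and 15264 and 17504 CPM (BCSP) in KO libraries. WT libraries had Sparc at 23937 and 16848 CPM (SSC), 21419 and 16551 CPM (pBCSP) and 13131 and 11015 CPM (BCSP). Of 8 collagen receptor genes 0 were called by edgeR in any comparison (6 at an unadjusted p under 0.05 for KO on average, and 4 for WT BCSP against WT SSC), and the highest of them was the integrin chain Itgb1. A list of 10 genes of collagen breakdown also held its inhibitors Timp1, Timp2 and Timp3. Of these 10, Ctsk (cathepsin K) was higher in WT BCSP than in WT SSC by 1.48 ± 0.24 (adjusted p = 0.0166, edgeR). In KO on average 0 of the 10 were called by edgeR (4 at an unadjusted p under 0.05). Type I collagen rose in WT BCSP, Col1a1 by 1.75 ± 0.15 and Col1a2 by 1.13 ± 0.18 against WT SSC (adjusted p = 0.00111 and 0.013, edgeR). In the fit over all 12 libraries 0 of the listed genes were called in the WT comparisons.

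Fibroblast markers were taken beside the fibrillar members, of which 4 of 6 were called higher in WT BCSP than in WT SSC. Of 8 markers 7 were higher in WT BCSP than in WT SSC, among them Dpt by 4.84 ± 0.27, Cd34 by 3.10 ± 0.22 and Ly6a by 4.26 ± 0.31 (adjusted p = 0.000329, 0.00057 and 0.00057, edgeR). Between KO and WT on average 7 of the 8 had a difference below 0, with a median of -1.59, and 0 were called by edgeR (4 at an unadjusted p under 0.05). Their sum was 1463 and 1650 CPM in SSC KO, 1408 and 1497 CPM in pBCSP KO and 2229 and 1841 CPM in BCSP KO, against 1257 and 883 CPM in SSC WT, 1446 and 1781 CPM in pBCSP WT and 2549 and 3097 CPM in BCSP WT. The sums of the KO and WT libraries overlapped, and SSC KO replicate 2 listed 4 of the 8 at 0. Lum, the highest of the 8 in CPM, made up much of these sums. It was at 1371 and 1612 CPM in SSC KO and 1136 and 743 CPM in SSC WT. In BCSP, Lum was at 1557 and 1763 CPM in KO and 1250 and 1474 CPM in WT. Dpt was there at 270 and 24.7 CPM in KO and 574 and 654 CPM in WT. Other markers summed to 349.6 to 662 CPM in KO and 366 to 675 CPM in WT libraries for mural cells, to 18.1 to 58.2 CPM in KO and 19.5 to 57.8 CPM in WT for keratinocytes, and to 6.90 to 24.4 CPM in KO and 6.11 to 14.2 CPM in WT for leukocytes. The highest mural marker in CPM was Cspg4, at 252 to 579 CPM in KO and 150 to 340 CPM in WT libraries. Between KO and WT on average 7 of the 8 mural markers had a difference below 0, with a median of -1.45. By edgeR 0 of them were called (2 at an unadjusted p under 0.05). Below 0 were also 2 of 6 keratinocyte markers tested and 4 of 5 leukocyte markers tested. The part of fibroblasts in the fibrillar values was not tested.

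Osteoblast markers, a list that holds Col1a1, were also taken beside the fibrillar members. The sum of the 8 was 8463 and 7283 CPM in SSC KO, 18762 and 8462 CPM in pBCSP KO and 20935 and 9069 CPM in BCSP KO, against 15863 and 14858 CPM in SSC WT, 23212 and 22369 CPM in pBCSP WT and 36520 and 41440 CPM in BCSP WT. Both BCSP WT sums stood above all others, and Col1a1 was the highest gene of the list in 11 of the 12 libraries. In WT BCSP against WT pBCSP 5 of the 8 were called higher, with the matrix genes Bglap by 5.71 ± 0.57, Ibsp by 4.77 ± 0.63 and Dmp1 by 2.56 ± 0.47 among them (adjusted p = 0.00954, 0.0176 and 0.0375, edgeR). These calls held for Bglap in 5, for Ibsp in 4 and for Dmp1 in 3 of the 6 fits that each left out 1 WT library. In WT pBCSP against WT SSC 5 of the 8 fell and Col1a1 rose, and in WT BCSP against WT SSC Col1a1 alone was called while 6 of the 8 had a difference below 0. Between KO and WT on average 7 of the 8 had a difference below 0, with a median of -1.27, and 0 were called by edgeR (3 at an unadjusted p under 0.05). Of the 8, pBCSP KO replicate 1 listed 1 at 0 and pBCSP KO replicate 2 listed 2. The part of osteoblasts in the collagen values was not tested.

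At the chromatin level, peak lists called by the authors were read at the start sites of the 26 members found in RefSeq, counting a peak within 1000 bases on either side. H3K4me3, a mark of promoters in use or poised for use, had a peak in all 6 lists (3 KO and 3 WT, 1 per population) at 22 of the 26. Col17a1, Col20a1 and Col28a1 had 0 peaks in 6 lists, and Col7a1 had 1 in KO and 1 in WT. The share of members with an H3K4me3 peak was 84.6% to 88.5% across the lists, against 49.9% to 53.7% of all genes with a start site. H3K4me1, a mark of enhancers and promoter flanks, was present at 69.2% to 96.2% of members and 41.3% to 60.6% of all genes, and H3K27ac, a mark of active elements, at 0% to 23.1% of members and 0.163% to 12.8% of all genes. The genes compared with were all those with a start site, without the filter on low counts that every member passed. The H3K27ac lists held 137 to 8572 peaks each, so that a gene without a peak there may lie below what those lists record.

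The 3 type VI members formed the only class in which every member with a start site had an H3K27ac peak in at least 1 list. Col6a1 had 1 in 4 of 6 KO lists and 2 of 6 WT lists, Col6a3 in 3 KO and 3 WT lists, and Col6a2 in 1 KO and 2 WT lists. Among the other members Col16a1 had 1 KO and 2 WT lists, and Col3a1, Col8a1, Col15a1 and Col27a1 had 1 KO list and 0 WT lists each. The H3K27ac lists differed in length. BCSP KO replicate 2 held 8572 peaks and 6 members, and BCSP WT replicate 2 held 785 peaks and 0 members. In pBCSP the WT lists were longer, with 6879 and 3811 peaks against 4783 and 1105 in KO. Differences of H3K27ac presence between genotypes were not tested. Col27a1 had an H3K4me1 peak at its start in 3 of 3 KO lists and in 1 of 3 WT lists, and Col4a6 in 2 of 3 KO lists and 0 of 3 WT lists. The number of H3K4me1 peaks per list ran from 75277 to 148530, and a difference of presence between lists of unequal length was not tested. For Col5a1 the authors' H3K4me3 fold enrichment was 15.1 to 20.9 in KO and 13.9 to 19.0 in WT lists. For Col3a1 it was 18.4 to 20.7 in KO and 13.2 to 19.5 in WT lists, so that the ranges of fold enrichment overlapped for both genes. The widths of the Col5a1 peaks did not overlap, at 6565 to 7766 bases in KO and 5270 to 5665 in WT lists. Widths were also apart for Col16a1 (5257 to 5926 in KO, 3916 to 4106 in WT) and Col8a1 (2747 to 3421 in KO, 2001 to 2664 in WT). Fold enrichment did not overlap for Col27a1 (11.3 to 15.0 in KO, 15.2 to 17.7 in WT) or Col6a2 (20.3 to 21.5 in KO, 22.3 to 25.0 in WT). With 1 list per population and genotype these differences were not tested, and the share of all genes without such overlap was not counted. Col28a1, whose printed start sequence has no CpG pair, had no peak of any of the 3 marks in any list.

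**Figure D4:**
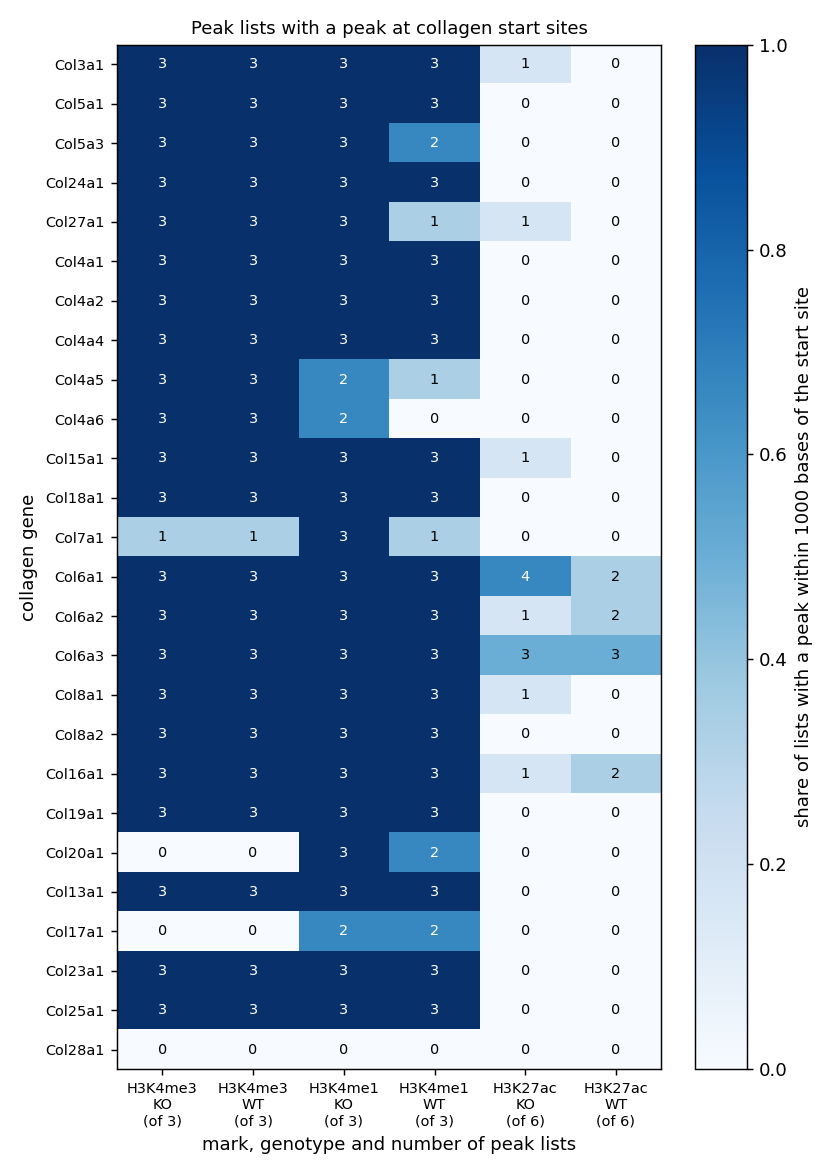
Number of peak lists with a peak within 1000 bases of the start site, for the 26 collagen genes with a start site in RefSeq (rows) and 3 histone marks in KO and WT (columns, with the number of lists in brackets); the shade gives the share of lists. H3K4me3 is filled for 22 genes in all 6 lists, and H3K27ac is found at 8 genes.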

How the data were processed

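Gene counts were deposited by the authors as whole reads per gene for 12 RNA libraries made from poly(A) RNA, and histone mark peak lists, whose deposited fold enrichment over background is a ratio given per peak, were read for 24 samples. Per the submitters' processing notes the tools included MACS2 2.2.6, SAMtools 1.9, featureCounts 2.0.1, Bowtie2 2.3.5.1 and Trim Galore 0.6.6, with build GRCm38. No source at hand says whether counting used strand. The levels reported are CPM computed on TMM-scaled library totals of the genes kept, and differences are fitted log2 values whose SE was taken from the quasi-likelihood F value. Tests used edgeR 4.0.16 in R 4.3.3 (TMM factors, filterByExpr, quasi-likelihood, Benjamini-Hochberg adjusted p under 0.05). KO was compared with WT over all 12 libraries (17494 genes, 6 residual degrees of freedom), and WT populations over the 6 WT libraries (16264 genes, 3 residual degrees of freedom). Alternatives used DESeq2 1.42.0, limma 3.58.1, other size factors, no filter, a replicate block, other sets of libraries and omission of each library.

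Collagen genes and lists were chosen with earlier results of these data known. Values in every library are given for members called in any of 8 comparisons, the 10 with the highest mean CPM and those whose genotypes do not overlap, and other lists name up to 4 called genes with the smallest adjusted p and the gene of highest CPM. Library totals of 15495915 to 22670899 limit precision, and floors of 3 counts cover counting error only. A peak counted where it lay within 1000 bases of a RefSeq start site, in lists deposited per sample; H3K27ac lists of broad and narrow layout were counted together. Col5a2, Col4a3, Col12a1, Col14a1, Col22a1 and Col26a1 had no start site in the table used and were not analysed for peaks.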

Additional observations from a re-analysis of the deposited data

How the results depend on the processing

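The 1 member called in KO against WT on average became 0 with RLE size factors, 15 with no filter on low counts, 10 with DESeq2, 4 with limma's sample quality weights, 0 with pBCSP and BCSP only, and 0 to 25 when each library was left out in turn. For KO against WT in SSC the count of 0 became 3 with no filter and 0 to 18 with each library left out. In pBCSP it was 0 in each of those fits. In BCSP it became 10 with no filter and 2 with DESeq2, and was 0 with each library left out. The test of a KO effect that differs between populations gave 1 with no filter, which was Col3a1, and 0 to 4 with each library left out. WT pBCSP against WT SSC gave 3 members, 9 with no filter, 7 with DESeq2, 0 in the fit over 12 libraries and 2 to 4 with each library left out. WT BCSP against WT pBCSP gave 5, and 12, 11, 0 and 0 to 7 under the same settings. WT BCSP against WT SSC gave 10, 13 with no filter, 11 with DESeq2, 0 in the fit over 12 libraries and 6 to 10. Over all genes the KO average count of 205 became 140, 1882, 1735, 292 and 0 with RLE, no filter, DESeq2, limma's weights and pBCSP and BCSP only, and 0 to 6147 with each library left out.

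Shares of all genes called also rose from the main fits. For KO on average they were 5.78% with no filter and 9.92% with DESeq2. They were 1.21% and 0.995% for KO in SSC, 0.799% and 0.612% in pBCSP, and 1.04% and 0.709% in BCSP. For WT pBCSP against WT SSC they were 3.05% and 3.78%, and for WT BCSP against WT pBCSP 4.5% and 6.08%. WT BCSP against WT SSC had 5% and 7.11%. With the replicate number as a block, 1 member was called for KO on average (Col6a3 in place of Col5a1, with 0.806% of all genes). This block gave 10 for WT pBCSP against WT SSC (6.13%) and 15 for WT BCSP against WT pBCSP (11.4%). For WT BCSP against WT SSC it gave 17 (13.0%). Deviations of same-numbered libraries correlated at 0.337 to 0.55 among KO groups and 0.358 to 0.445 among WT groups, but at -0.15 to 0.0463 between KO and WT. With 2 numbers per group this is a hint from the data, not the design. A replicate block within genotype, chosen after seeing the data, gave 14 members for KO on average (16.4% of all genes called), 1 in SSC (0.52%), 0 in pBCSP (0.812%) and 9 in BCSP (1.85%).

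Of 24 peak counts, 13 moved when a peak had to cover the start site, 8 with the upper part of each list by fold enrichment and 4 with a window of 2500 bases. Levels per length were planned and not run, because exon lengths were not at hand. The cause of these shifts was not tested.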
